A study of Homo sapiens with 4 samples.

Results

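The JAK kinases and the STAT transcription factors were followed through a nascent RNA study of Karpas 299, an established human line of anaplastic large cell lymphoma. The set has 9 named genes, each with an entry on its own strand: the kinases JAK1, JAK2, JAK3 and TYK2 and the factors STAT3, STAT4, STAT5A, STAT5B and STAT6, so 9 of 22798 genes listed. They were chosen by symbol and not by a cutoff on their values, though with earlier results of these data known. Bru-seq was used, in which cells take up bromouridine and an antibody captures the labelled RNA, so the reads come from RNA made in the labelling window. Of the 4 libraries, SM-164, a bivalent mimetic of Smac that antagonises IAP proteins, had the solvent DMSO as its control, both added for 3 h. Cells placed for 3 h on a layer of Chinese hamster ovary cells with the CD30 ligand (CD30L+ CHO) had a layer of plain CHO cells as their control. Labelling took the last 30 min in each. All 4 conditions used the same line and each was done once. No source used here states a dose for SM-164.

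JAK kinases sit on the inner ends of cytokine receptors. A bound cytokine brings the kinases together, they phosphorylate the receptor, and STAT proteins dock there, are phosphorylated, pair up and enter the nucleus. JAK1, JAK2 and TYK2 are found in most cell types, whereas JAK3 is largely a kinase of blood cells that pairs with the common gamma chain of the receptors for interleukins such as IL-2. In anaplastic large cell lymphoma with an ALK fusion, STAT3 is known as a main downstream factor of the fusion kinase.

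Because no condition was repeated, none of the differences below has a replicate check, and no p-value was computed. The unit is RPKM, reads per kilobase of counted bases scaled to the library's total reads, over exons and introns together. Library totals were worked out from the deposited signal and RPKM of the features, and ran from 26217590 to 45885630 reads. Intervals in brackets are exact 95% counting intervals. They cover counting error only: no molecular identifiers are described, so PCR copies count as separate reads. Of the markers of this lymphoma, TNFRSF8, which encodes CD30, was at 12.3 RPKM with SM-164, 9.59 with DMSO, 5.10 on CD30L+ CHO cells against 4.97 on CHO cells. ALK was between 0.0966 and 0.137 RPKM when counted over the whole gene. IL2RA, IRF4 and BATF3 were also higher in each treated library than in its control, whereas NPM1, PRF1 and GZMB were lower in each. MUC1 was lower with SM-164 and higher with CD30L. Of the 9 such markers, 7 were expressed enough to be tested. At 2-fold, 0 were called with SM-164, against 0.190% of all tested genes higher and 0.0634% lower. With CD30L 1 was called, higher, against 0.979% of all tested genes higher and 0.731% lower. This was BATF3, an AP-1 family factor, at 13.3 RPKM on CD30L+ CHO cells against 4.94 on CHO cells. Between the controls, CHO over DMSO, 3 of 7 were lower (BATF3, PRF1 and GZMB), against 4.52% of all tested genes. The median log2 ratio of the markers was -0.91 there, and that of all tested genes was 0.06. Of 10 stromal and epithelial markers, 0 reached 0.5 RPKM in any library, and their summed level was 0.637, 0.675, 0.309 and 0.533 RPKM in the same order of libraries. Of 8 markers of other blood cells, 2 or 3 reached that level, led by CSF1R. All these markers are human entries, so they cannot show how much hamster RNA the co-culture libraries held, which was not tested. Any part of these markers in the results was not tested. In such bulk material, fewer cells of a type and less RNA per cell cannot be told apart.

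Upstream sequence is shown for 4 of the genes: STAT3, STAT5A and STAT5B, which lie side by side and were all higher with CD30L, and JAK3, which was lower. Of the genes not shown, JAK1, TYK2 and STAT4 were also higher and STAT6 was also lower. The 4 shown include the only 2 of the 9 genes with a match to the motif marked below. Each stretch is the 250 bases before a transcript start in RefSeq (GRCh38.p14), 5′ to 3′ in the gene's direction, on lines that give the gene, its coordinates and its strand. All 9 genes matched the RefSeq table, with 17 starts in all. STAT5A has 3 starts there. The stretch shown lies before the start furthest downstream, the only one of the 3 with a match to the motif marked below. The starts were not matched to the entry whose reads were counted, which is on another build. Capitals mark a match to the kappaB motif, which NF-kB factors bind, searched on both strands.
JAK3, chr19:17847983-17848232, minus strand: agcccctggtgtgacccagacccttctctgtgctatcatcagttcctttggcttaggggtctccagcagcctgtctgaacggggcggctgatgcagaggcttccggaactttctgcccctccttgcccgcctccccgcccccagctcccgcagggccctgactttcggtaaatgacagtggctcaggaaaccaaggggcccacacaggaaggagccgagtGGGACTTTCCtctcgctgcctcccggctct
STAT3, chr17:42388443-42388692, minus strand: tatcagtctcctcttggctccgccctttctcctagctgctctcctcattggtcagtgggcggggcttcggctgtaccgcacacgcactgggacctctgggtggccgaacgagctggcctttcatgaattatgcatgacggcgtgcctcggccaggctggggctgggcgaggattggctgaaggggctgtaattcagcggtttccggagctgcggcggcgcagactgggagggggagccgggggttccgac
STAT5A, chr17:42288248-42288497, plus strand: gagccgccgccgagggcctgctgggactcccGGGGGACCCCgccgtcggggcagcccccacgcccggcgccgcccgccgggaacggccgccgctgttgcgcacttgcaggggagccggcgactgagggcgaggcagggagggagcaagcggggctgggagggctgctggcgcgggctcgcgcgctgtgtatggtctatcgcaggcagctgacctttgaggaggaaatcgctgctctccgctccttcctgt
STAT5B, chr17:42276392-42276641, minus strand: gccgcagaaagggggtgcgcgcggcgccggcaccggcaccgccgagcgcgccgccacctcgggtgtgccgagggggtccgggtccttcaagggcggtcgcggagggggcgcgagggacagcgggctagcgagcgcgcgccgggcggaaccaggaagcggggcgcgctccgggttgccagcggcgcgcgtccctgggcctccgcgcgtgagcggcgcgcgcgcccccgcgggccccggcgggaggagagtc

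The kappaB motif was found before 2 of the 17 starts, 1 of JAK3 and 1 of STAT5A. The JAK3 match, GGGACTTTCC, begins 30 bases before the start, and the STAT5A match, GGGGGACCCC, begins 219 bases before it. Of all 35114 upstream windows of 250 bases, 9.96% held this motif. The motif TTCNNNGAA, which STAT dimers bind, was in none of the 17 windows and in 6.57% of all windows. Its form with a longer spacer, TTCNNNNGAA, which STAT6 prefers, was before another STAT5A start and in 5.38% of all windows. Both STAT motifs read the same on either strand and were searched apart from the kappaB motif. GC content differed widely among the 4 stretches, at 62.8% for JAK3, 64.4% for STAT3, 74.4% for STAT5A and 82.0% for STAT5B, against a median of 58.0% over all windows. These matches describe the letters only.

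**Figure D1:**
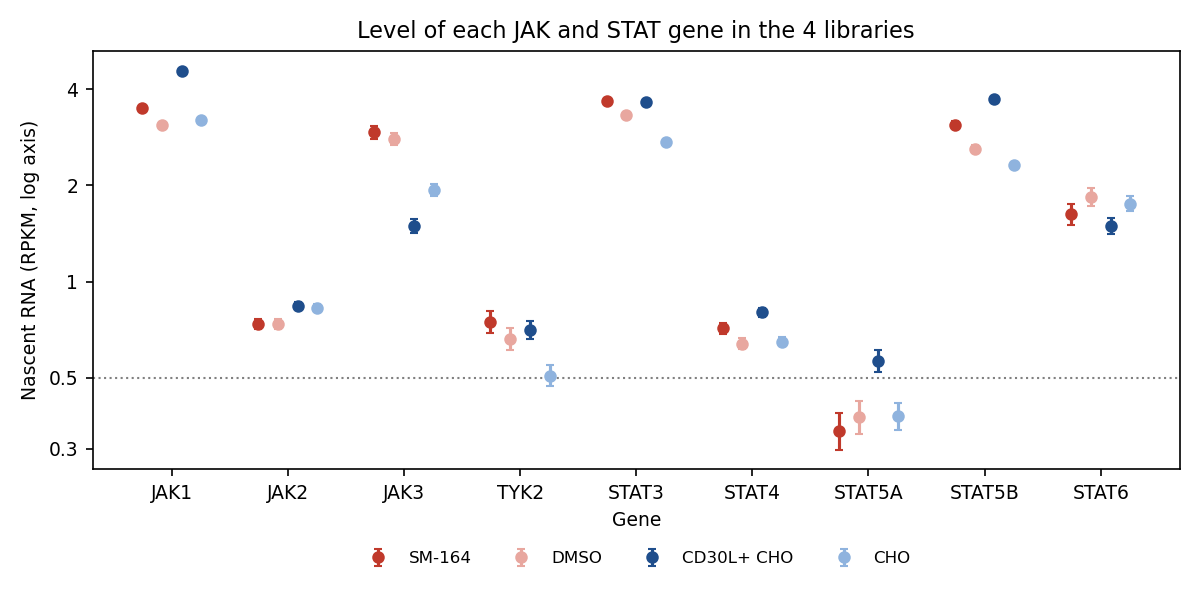
Nascent RNA level (RPKM, log axis) of each of the 9 genes in the 4 libraries. Points are single libraries, bars are 95% counting intervals and the dotted line is 0.5 RPKM. JAK1, STAT3, STAT5B, JAK3 and STAT6 lay above 1 RPKM in every library, and STAT5A passed 0.5 RPKM only on CD30L+ CHO cells.

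The members fell into a higher and a lower tier, as the plot of levels by library shows. JAK1, JAK3, STAT3, STAT5B and STAT6 ran from 1.495 to 4.54 RPKM. JAK2, TYK2, STAT4 and STAT5A ran from 0.341 to 0.840 RPKM. In the DMSO library, STAT3 stood first at 3.31 RPKM and JAK1 second at 3.10. On plain CHO cells JAK1 stood first at 3.20 RPKM and STAT3 second at 2.73. In the DMSO library the counting intervals of JAK2 (0.736 RPKM) and TYK2 (0.661) overlapped, and so did those of TYK2 and STAT4 (0.639). STAT3 ranked high among all genes too: in the DMSO library, 6.34% of listed genes had a higher RPKM, against 40.6% for STAT5A.

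Among the kinases, JAK1, the partner of JAK3 on common gamma chain receptors, was at 3.50 RPKM with SM-164 against 3.10 with DMSO. It was at 4.54 RPKM on CD30L+ CHO cells against 3.20 on CHO cells. The CD30L+ CHO library stood above the other three, which ran from 3.10 to 3.50 RPKM. The ratio was 1.42-fold for CD30L+ CHO over CHO (1.397 to 1.449) and 1.13-fold for SM-164 over DMSO (1.10 to 1.16). JAK1 lies on chromosome 1 from 65298906 to 65432187 on the minus strand (hg19, as for all gene positions below).

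JAK3, on the minus strand of chromosome 19 from 17935593 to 17958841, went the other way with CD30L. Its level was 1.495 RPKM on CD30L+ CHO cells against 1.94 on CHO cells. In the drug experiment it was 2.94 RPKM with SM-164 against 2.80 with DMSO. Both co-culture libraries thus lay below both drug libraries. CD30L+ CHO was at 0.771 of CHO (0.722 to 0.824), and CHO at 0.692 of DMSO (0.651 to 0.736), so the ratio between the 2 control libraries was further from 1 than that of the CD30L pair, with overlapping intervals. SM-164 over DMSO was 1.05-fold (0.983 to 1.12), an interval that includes 1. After TMM scaling the CD30L ratio was 0.889 (0.832 to 0.950). As a share of the summed RPKM of the 4 kinase genes, JAK3 was 19.7% on CD30L+ CHO cells against 30.0% on CHO cells, 37.0% with SM-164 against 38.4% with DMSO. JAK1 was 59.9% and 49.4%, 44.2% and 42.5% in the same order.

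JAK2, the kinase of the receptors for erythropoietin and interferon gamma among others, had the ratio nearest to 1 in both comparisons. It was at 0.737 RPKM with SM-164 against 0.736 with DMSO, a ratio of 1.00 (0.950 to 1.05). It was at 0.840 RPKM on CD30L+ CHO cells against 0.828 on CHO cells, a ratio of 1.01 (0.976 to 1.05). Both intervals include 1, but after TMM scaling, which rescales whole libraries, the CD30L ratio was 1.17 (1.125 to 1.213). JAK2 lies on chromosome 9 from 4985245 to 5128183 on the plus strand.

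TYK2, which serves the receptors of type I interferons and IL-12, was at 0.748 RPKM with SM-164 against 0.661 with DMSO. It was at 0.706 RPKM on CD30L+ CHO cells against 0.508 on CHO cells. The CHO library was the low one, and the counting intervals of the other three overlapped. The ratio was 1.39-fold for CD30L+ CHO over CHO (1.26 to 1.53) and 1.13-fold for SM-164 over DMSO (1.01 to 1.27). CHO was at 0.770 of DMSO (0.690 to 0.859). TYK2 lies on chromosome 19 from 10461204 to 10491248 on the minus strand.

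STAT5B, which carries signals of IL-2 and growth hormone, had the largest ratio of the set in both comparisons. It was at 3.72 RPKM on CD30L+ CHO cells against 2.32 on CHO cells, from 13088 and 8220 estimated reads. With SM-164 it was at 3.10 RPKM and with DMSO at 2.60. Each treated library lay above both controls. CD30L+ CHO over CHO was 1.60-fold (1.56 to 1.65), and SM-164 over DMSO was 1.19-fold (1.15 to 1.23). On the log2 scale with 0.25 RPKM added to each level, these were 0.63 and 0.23, and 2.32% and 5.04% of all tested genes had a higher ratio.

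STAT5A, its close paralogue, was at 0.564 RPKM on CD30L+ CHO cells against 0.379 on CHO cells. It was at 0.341 RPKM with SM-164 against 0.376 with DMSO. The CD30L+ CHO library alone stood out. The ratio was 1.49-fold for CD30L+ CHO over CHO (1.31 to 1.69) and 0.905 for SM-164 over DMSO (0.755 to 1.08). STAT5A was the one gene of the 9 below the minimum for testing in every comparison, a mean of 0.5 RPKM over the pair of libraries, with means of 0.471 for the CD30L pair and 0.358 for the SM-164 pair. STAT5B was 6.13 to 9.09 times as high as STAT5A in RPKM within a library. Reads from near-identical exons of the pair may be shared out or lost, so their exonic part is uncertain.

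STAT3, the factor of IL-6 family cytokines and of the ALK fusion, was at 3.64 RPKM on CD30L+ CHO cells against 2.73 on CHO cells. It was at 3.68 RPKM with SM-164 against 3.31 with DMSO. The ratio for CD30L+ CHO over CHO was 1.33-fold (1.30 to 1.37). Here the low library was CHO, at 0.824 of DMSO (0.800 to 0.849), and both ratios use that CHO library. SM-164 over DMSO was 1.11-fold (1.07 to 1.15).

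STAT5B, STAT5A and STAT3 are neighbours within 189 kb of chromosome 17. STAT5B runs from 40351195 to 40428424 on the minus strand, STAT5A from 40439565 to 40463960 on the plus strand and STAT3 from 40465343 to 40540513 on the minus strand. The gap between STAT5B and STAT5A is 11140 bases and that between STAT5A and STAT3 is 1382. All 3 were higher on CD30L+ CHO than on CHO cells. GHDC, the next gene beyond STAT5B, was at 0.190 RPKM on CD30L+ CHO cells against 0.290 on CHO cells. Like STAT5A, GHDC was below the minimum for testing. PTRF, the next gene beyond STAT3, was at 0.0219 RPKM or less in every library.

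STAT4, the factor of IL-12 signalling in T cells, was at 0.801 RPKM on CD30L+ CHO cells against 0.649 on CHO cells, a ratio of 1.23-fold (1.18 to 1.29). It was at 0.714 RPKM with SM-164 against 0.639 with DMSO, a ratio of 1.12-fold (1.06 to 1.18). As for STAT5B, both treated libraries lay above both controls. STAT6, the factor of IL-4 and IL-13, was at 1.495 RPKM on CD30L+ CHO cells against 1.75 on CHO cells, a ratio of 0.852 (0.785 to 0.924). It was at 1.62 RPKM with SM-164 against 1.84 with DMSO, a ratio of 0.881 (0.797 to 0.974). STAT6 was the one gene of the 9 with an interval below 1 in both comparisons, but after TMM scaling both intervals include 1, at 0.982 (0.905 to 1.07) with CD30L and 0.909 (0.822 to 1.005) with SM-164. STAT4 lies on chromosome 2 from 191894302 to 192016322 and STAT6 on chromosome 12 from 57489187 to 57505196, both on the minus strand.

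**Figure D2:**
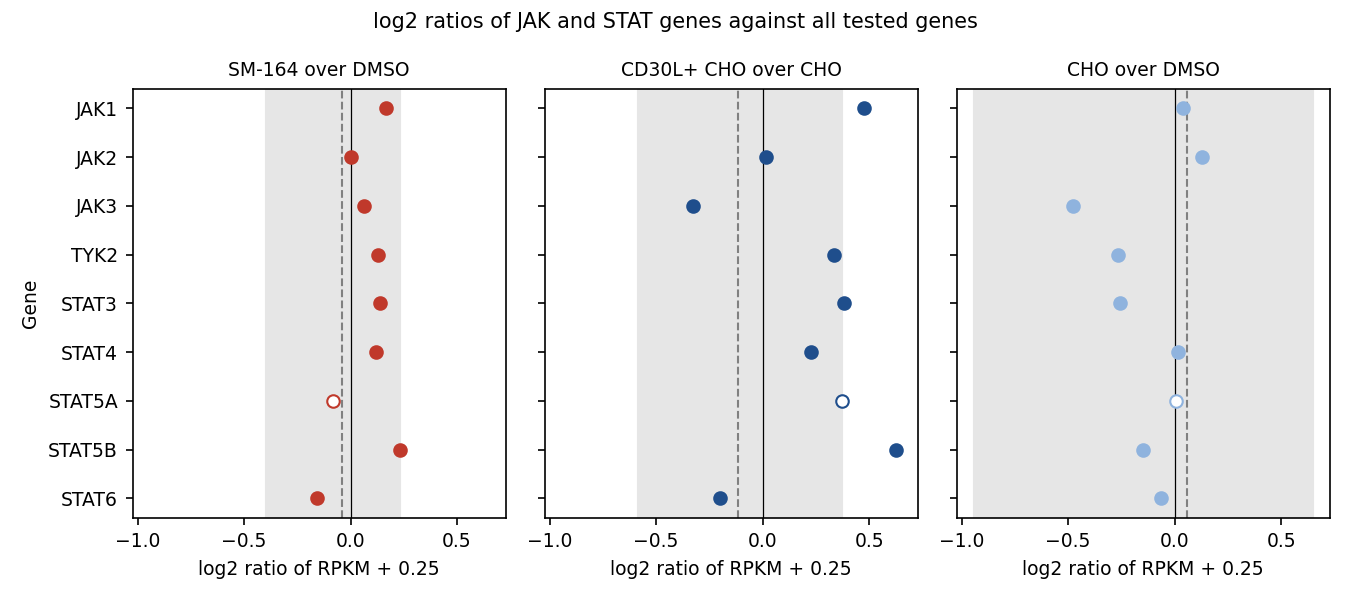
log2 ratio of each gene in the 3 comparisons, after adding 0.25 RPKM to each level. Filled points passed the minimum for testing, STAT5A (open) did not; the grey band holds the middle 90% of all tested genes, and the dashed line is their median. JAK1, STAT3 and STAT5B lay beyond the band for CD30L+ CHO over CHO, at 0.48, 0.38 and 0.63, and STAT5A lay at its edge, at 0.37.

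A gene was tested with at least 300 counted bases and a mean of at least 0.5 RPKM over the pair, and was called at 2-fold or more on the log2 scale above, which understates differences of low genes. With SM-164, 0 of the 8 tested members were called in either direction, against 0.190% of 7881 tested genes higher and 0.0634% lower. With CD30L, 0 of 8 were called in either direction, against 0.979% of 7661 tested genes higher and 0.731% lower. At 1.5-fold, 1 of 8, STAT5B, was higher with CD30L, against 2.62% of tested genes, and 0 were lower, against 4.99%. With SM-164 0 of 8 were past 1.5-fold, against 0.787% higher and 1.10% lower. Such small shares leave little to read from counts of 8. By rank, 2.32% of tested genes had a higher CD30L ratio than STAT5B, 3.64% than JAK1, 4.89% than STAT3 and 5.78% than TYK2.

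Counting intervals lay above 1 for 5 of 8 tested members with CD30L, against 18.3% of tested genes, and below 1 for 2 of 8, against 55.7%. With SM-164 they lay above 1 for 5 of 8, against 15.7%, and below 1 for 1 of 8, against 29.4%. The 5 higher members were JAK1, TYK2, STAT3, STAT4 and STAT5B in both comparisons. After TMM scaling intervals lay above 1 for 6 of 8 with CD30L, JAK2 added, against 44.7% of tested genes, and below 1 for 1, JAK3, against 23.7%. With SM-164 they then lay above 1 for 6 of 8, JAK3 added, against 22.9%, and below 1 for 0, against 20.0%. Genes with more reads have narrower intervals, and these members are mostly long genes with many reads. The median log2 ratio of the tested members was 0.28 with CD30L and 0.12 with SM-164, and over all tested genes it was -0.12 and -0.04 in the same order. The plot of log2 ratios shows 3 tested members beyond the middle 90% of genes with CD30L and none beyond it with SM-164 or between the controls. With SM-164, STAT5B lay just inside the upper edge, at 0.2311 against 0.2320.

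Between the controls, CHO over DMSO, the tested members had a median of -0.11 and all tested genes 0.06. Of the 8 tested members, 0 were called at 2-fold, against 0.879% of 8081 tested genes higher and 4.52% lower, and 0 at 1.5-fold, against 7.07% higher and 10.7% lower. Intervals lay above 1 for 2 of 8, against 45.9% of tested genes, and below 1 for 4 of 8, against 34.0%. JAK3 (-0.48), TYK2 (-0.26), STAT3 (-0.26) and STAT5B (-0.15) were the 4 lower on CHO cells. For TYK2, STAT3 and STAT5B the CD30L ratio has the opposite sign, and both ratios share the CHO library, so a low value there moves them in opposite ways.

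**Figure D3:**
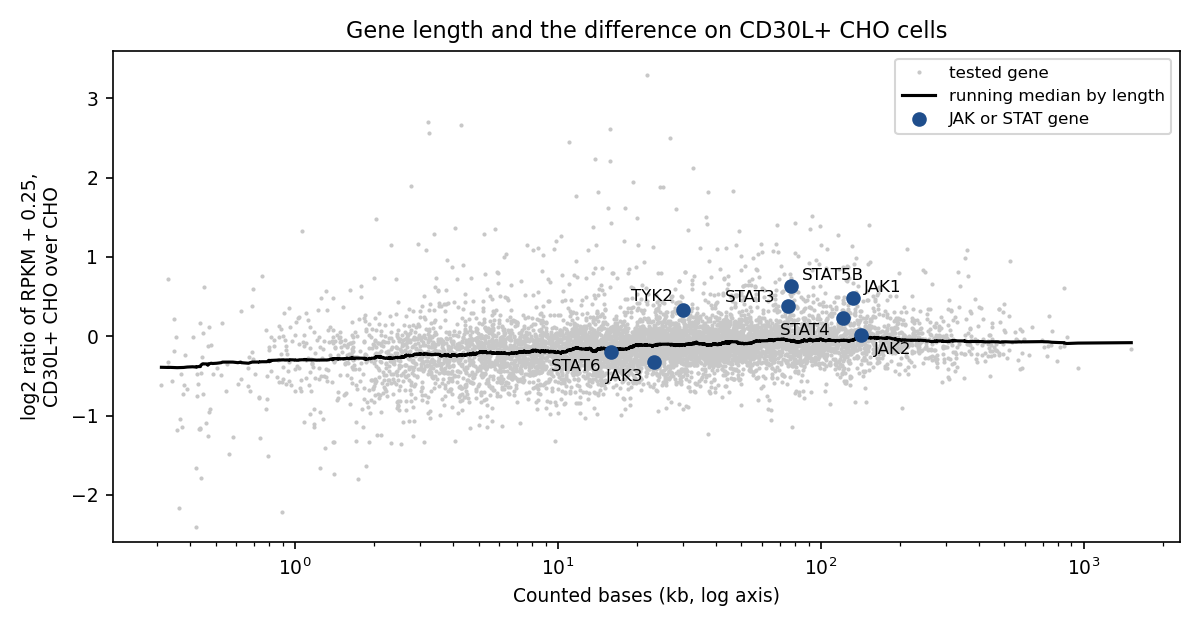
log2 ratio for CD30L+ CHO over CHO (RPKM + 0.25) against counted bases (kb, log axis) for all tested genes in grey, with their running median in black. The 8 tested JAK and STAT genes are in blue; JAK1, TYK2, STAT3, STAT4 and STAT5B lay above the running median, JAK3 below it, and JAK2 and STAT6 within 0.05 of it.

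Gene length moved with the ratios. Across tested genes the median log2 ratio with CD30L was -0.27 in the shortest decile of counted bases and -0.04 in the longest, and the members range from 16.01 kb for STAT6 to 143 kb for JAK2. With the running median of genes of like length subtracted, the CD30L ratios were 0.69 for STAT5B, 0.53 for JAK1, 0.44 for TYK2, 0.43 for STAT3 and 0.27 for STAT4. JAK3 was at -0.21, JAK2 at 0.04 and STAT6 at -0.05. The STAT6 difference of -0.20 was thus close to that of other genes of its length, at -0.15. For SM-164 the same subtraction gave 0.23 for STAT5B, 0.17 for TYK2, 0.15 for JAK1, 0.14 for STAT3, 0.12 for JAK3, 0.10 for STAT4, -0.02 for JAK2 and -0.09 for STAT6. The median of all genes with CD30L moved by 0.17 under TMM scaling, and the STAT6 ratio of -0.20 was -0.02 and the JAK3 ratio of -0.33 was -0.15 under it. The CD30L ratios of the 9 genes kept their sign under the alternatives tried. The length correction covers the 8 tested genes and not STAT5A. A pseudocount cannot change a sign, and the scalings and the length correction raised every CD30L ratio they covered. Only the lower genes, JAK3 and STAT6, could thus have changed sign, and the kept signs of the higher genes are no check.

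The strand opposite to each gene gave a second readout. Over JAK1 it held 2 to 10 reads a library, at most 0.0362% of the reads on both strands, so the strands were well separated there. TYK2 had 0 or 1 such reads, and with DMSO, at 0 reads, the counting interval reached up to 0.00396 RPKM. STAT4 had the highest share: its opposite strand held 3647 reads on CD30L+ CHO cells against 4511 on CHO cells, 759 with SM-164 against 914 with DMSO. These were 45.0% and 55.4%, 24.9% and 27.4% of reads over the gene, against 4.01% to 4.35% over all genes. On CHO cells more reads lay opposite to STAT4 than along it.

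**Figure D4:**
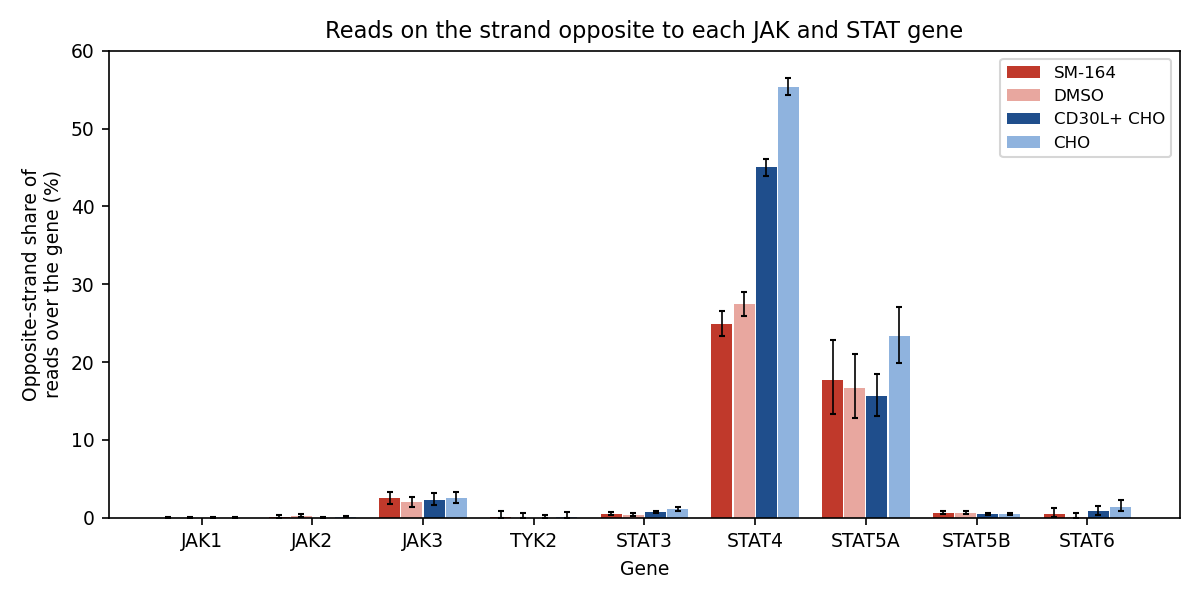
Share (%) of reads over each gene that lay on the opposite strand, in the 4 libraries; bars are single libraries and error bars are exact 95% binomial (Clopper-Pearson) intervals. STAT4 ran from 24.9% with SM-164 to 55.4% on CHO cells, and STAT5A from 15.6% on CD30L+ CHO cells to 23.4% on CHO cells.

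In RPKM, the opposite strand of STAT4 was at 0.656 on CD30L+ CHO cells against 0.806 on CHO cells, 0.237 with SM-164 against 0.241 with DMSO. The co-culture libraries were high and the drug libraries low, with no overlap. CHO over DMSO was 3.34-fold (3.11 to 3.59). On the log2 scale this was 1.10, where the 531 tested opposite-strand features had a median of 0.41 and 7.91% of them had a higher ratio. Over all opposite-strand features the share of library reads was 3.57% on CHO cells and 3.56% with DMSO. CD30L+ CHO over CHO was 0.814 (0.779 to 0.851), while the sense strand of STAT4 was higher in that pair. On the log2 scale the opposite strand was at -0.22 there, against a median of -0.11 over 598 tested opposite-strand features. Of these, 70.6% had a higher ratio. SM-164 over DMSO was 0.983 (0.891 to 1.08).

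No listed gene on the plus strand overlaps STAT4. RefSeq (GRCh38.p14, not the build of these values) lists a long noncoding RNA gene, STAT4-AS1, next to STAT4; the reads here were not assigned to it.

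Opposite to STAT5A lay 116 reads on CD30L+ CHO cells against 129 on CHO cells, 46.8 with SM-164 against 57.1 with DMSO, or 15.6% to 23.4% of reads over that gene. STAT3, on that strand, ends 1382 bases from the end of STAT5A, and the 2 genes point toward each other. In RPKM these reads were at 0.104 on CD30L+ CHO cells against 0.115 on CHO cells, a ratio of 0.906 (0.699 to 1.17). The source of these reads was not tested. Opposite to STAT3, the share was 0.399% to 1.12%. For JAK3 it was 1.99% to 2.59%, and for JAK2, STAT5B and STAT6 it was at most 1.45% in any library.

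The rest of the pathway was read from lists drawn up by role. Of 24 receptor chains that bind JAK kinases, 14 were tested with SM-164 and 1 was called higher, against 0.190% of all tested genes. This was IL21R, a common gamma chain partner, at 5.10 RPKM with SM-164 against 2.19 with DMSO. With CD30L 16 were tested and 0 were called, with a median log2 ratio of 0.23. Of 17 cytokines that signal through JAK kinases, 3 were tested with CD30L and 1 was called higher, against 0.979% of all tested genes. This was IL22, at 51.1 RPKM on CD30L+ CHO cells against 20.8 on CHO cells. With SM-164 4 were tested and 0 called.

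Of 19 negative regulators, such as the SOCS proteins, which block JAK kinases, and phosphatases, 15 were tested in each main comparison. With CD30L 1 was called higher, against the same 0.979%, SOCS2, at 2.60 RPKM on CD30L+ CHO cells against 1.15 on CHO cells, and with SM-164 0 were called. Of 20 genes known as STAT targets in other settings, 15 were tested with CD30L and 1 was called lower, against 0.731% of all tested genes, JUNB, an AP-1 factor, at 0.974 RPKM on CD30L+ CHO cells against 2.45 on CHO cells. With SM-164 16 were tested and 0 called. The medians of these lists were -0.02 for negative regulators and -0.13 for STAT targets with CD30L, beside -0.12 for all genes.

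Genes most like STAT5B were found by the distance between log2 levels, centred on each gene's mean over the 4 libraries. Of 7860 genes searched, MCOLN2 (distance 0.0728) and RAB7L1 (0.0837) were among the 3 closest, where the median gene was at 0.668. MCOLN2 was at 0.868 RPKM on CD30L+ CHO cells against 0.509 on CHO cells, 0.672 with SM-164 against 0.559 with DMSO. RAB7L1 was at 2.93 RPKM on CD30L+ CHO cells against 1.97 on CHO cells, 2.54 with SM-164 against 2.19 with DMSO. Likeness over 4 single libraries is a description of these values only.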

How the data were processed

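Nascent RNA of 4 libraries, 1 per condition, was analysed. Bedtools 2.16.2, TopHat 1.4.1, Bowtie 0.12.8, CASAVA 1.8.2 and build hg19 are named in the submitters' processing notes, and no source used here names the annotation. The authors deposited an estimated count per feature and strand, the signal per counted base and the RPKM. Where a symbol was repeated, its entry with the most counted bases was used.

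The log2 ratio was taken of RPKM + 0.25 over all sense genes. Folds are ratios of rounded estimated counts per library total, with exact conditional (Clopper-Pearson) 95% intervals. Intervals of levels are exact Poisson ones. Alternatives were a pseudocount of 0.1 or 1, no minimum or 1 RPKM, 1.5-fold, a median of 0, TMM scaling (edgeR 4.0.16, R 4.3.3) and subtraction of the length trend. The text names all 9 members, list genes at 2-fold or more, neighbours and the 3 genes most like the member with the largest ratio. Some genes under this rule are not reported here. The members and lists were chosen with earlier results of these data known. The procedure was tested on simulated data with counting error only and with planted changes larger than those of the members. That test does not cover PCR copies or variation between replicates. Values were computed with scipy 1.17.1, pandas 2.3.3 and numpy 2.4.6 under Python 3.11.15, and plots with matplotlib 3.10.9.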

Additional observations from a re-analysis of the deposited data

How the results depend on the processing

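Under the pseudocounts, expression minimums, scalings and length correction tried, 0 members reached 2-fold in any of the 3 comparisons, and the 1.5-fold threshold called 1, STAT5B, higher with CD30L. The median log2 ratio of the tested members with CD30L, 0.28, was 0.15 with a pseudocount of 1, 0.39 with the median of all genes at 0, 0.43 under TMM scaling and 0.35 with the length trend subtracted. Between the controls the median, -0.11, was -0.21 under TMM scaling and -0.23 with the length trend subtracted. The cause was not tested. With SM-164 the median stayed between 0.07 and 0.17. Members with counting intervals below 1 were 1 with CD30L and 0 with SM-164 under TMM scaling, where they had been 2 and 1. Signs held for the 9 genes with CD30L (STAT5A without the length correction) and for 8 of 9 with SM-164, where JAK2 was at -0.02 once the length trend was subtracted. A pseudocount cannot change a sign. With CD30L the other settings raised every ratio, so only JAK3 and STAT6 could have changed. With SM-164 the scalings raised every ratio, so a higher gene could change sign only under the length correction. Between the controls 6 of 9 held, and JAK1, STAT4 and STAT5A, all near 0, changed sign under scaling. Including STAT5A in the median, and the scaling settings for the 2-fold count and the intervals, were chosen after seeing the data. No paired analysis was possible because each condition has 1 library. The low members rest on 218 to 966 reads for STAT5A and TYK2, which limits their precision.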

Other observations

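Between the controls, CHO over DMSO, 1 of 14 negative regulators and 3 of 15 STAT targets tested were at least 2-fold lower, against 4.52% of tested genes, and 0 of 16 receptor chains and 0 of 3 cytokines. SOCS1, a feedback inhibitor of JAK kinases, was at 0.826 RPKM on CHO cells and 5.15 with DMSO, 0.161 of the DMSO level (0.121 to 0.210). JUNB was at 2.45 RPKM on CHO cells and 22.2 with DMSO, 0.111 of that level (0.0949 to 0.128). The cytotoxic granule genes PRF1 and GZMB were at 0.392 (0.357 to 0.430) and 0.459 (0.403 to 0.522) of their DMSO levels. Both are also among the lymphoma markers counted as lower above, so these lists overlap. SOCS1, JUNB and GZMB are counted over 1766, 1816 and 3272 bases, in the shortest decile, whose genes had a median log2 ratio of -0.54. PRF1, over 5428 bases, is in the next, with a median of -0.21. The contact with CHO cells and the experiment cannot be told apart here.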
